A study of Mus musculus with 12 samples.

Results

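Mitochondrial ribosomal protein genes were taken as the protein-coding mouse genes whose symbol reads Mrpl or Mrps followed by a number. There were 78 such genes. Of them 77 stood among the 30803 Ensembl identifiers tabulated for GSH and WT, and all 78 among the 17558 symbols tabulated for Cas9 and Ctrl. Mrpl53 was found in the Cas9 and Ctrl table only. All libraries were labelled as 4T1, a mammary carcinoma line derived from a BALB/c mouse, kept in culture in DMEM with fetal bovine serum and given no other treatment in the labels. The groups carried the genotype names GSH (3 libraries), WT (3 libraries), Cas9 (3 libraries) and Ctrl (1 library, numbered 3). The 2 further Ctrl samples of the labels were not analysed here. What GSH stands for and which gene was targeted in Cas9 cells is not given in the sources used here, so a check of the targeted gene was not made. Whether GSH and Cas9 cells were a single clone or a pool is not given either.

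Mitochondria keep a small genome of their own and translate its messenger RNAs on their own ribosome, which makes core subunits of the respiratory chain and of ATP synthase. The RNA of that ribosome comes from the mitochondrial genome, whereas its proteins are encoded in the nucleus, made in the cytosol and imported. Part of the proteins have a counterpart in the bacterial ribosome and part were added during the evolution of mitochondria. By symbol and subunit, 51 of the 78 genes encode proteins of the large subunit and 26 of the small subunit. Mrps18a and Mrps30 count with the large subunit, where their proteins sit despite their names. Mrps36 is the remaining gene, and its product is known as a subunit of the oxoglutarate dehydrogenase complex.

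Promoters of nuclear genes for mitochondrial proteins are known for sites of NRF1, ETS factors such as GABP, and YY1. The sequences below are the 100 bases before the annotated start of genes on which the results turn, from RefSeq on GRCm38.p6, written 5′ to 3′ on the strand of the gene. Capitals mark a match to the NRF1 motif, GCGCA, then any base, then GCGC, or to the ETS motif CCGGAAG, on either strand. The first 5 genes were higher in GSH and were chosen to show a match. The last pair, Mrps10 and Mrpl24, were the members lower in GSH and held neither motif in these bases.
Mrpl17, chr7:105811088-105811187, minus strand: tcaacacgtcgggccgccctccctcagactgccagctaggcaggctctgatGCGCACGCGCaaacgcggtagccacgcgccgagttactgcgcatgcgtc
Mrpl12, chr11:120484537-120484636, plus strand: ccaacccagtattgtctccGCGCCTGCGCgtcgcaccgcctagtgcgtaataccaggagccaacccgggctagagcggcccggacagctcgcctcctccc
Mrpl57, chr14:57826139-57826238, plus strand: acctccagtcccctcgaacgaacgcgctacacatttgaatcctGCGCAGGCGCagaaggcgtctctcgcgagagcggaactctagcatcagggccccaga
Mrps18a, chr17:46110904-46111003, plus strand: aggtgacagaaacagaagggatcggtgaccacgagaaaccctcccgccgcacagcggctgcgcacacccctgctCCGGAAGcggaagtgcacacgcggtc
Mrpl3, chr9:105053168-105053267, plus strand: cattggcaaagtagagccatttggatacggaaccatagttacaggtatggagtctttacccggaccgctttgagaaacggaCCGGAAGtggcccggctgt
Mrps10, chr17:47369097-47369196, plus strand: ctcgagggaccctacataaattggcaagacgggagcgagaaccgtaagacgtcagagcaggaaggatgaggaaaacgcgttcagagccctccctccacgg
Mrpl24, chr3:87919444-87919543, plus strand: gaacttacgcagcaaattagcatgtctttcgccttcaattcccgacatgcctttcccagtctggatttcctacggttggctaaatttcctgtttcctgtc

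Depth was 18531444 to 30168737 reads in GSH libraries, 20297490 to 21954133 in WT libraries, 33152215 to 35742818 in Cas9 libraries and 39201544 in Ctrl 3, as recovered from the deposited values. Those values were FPKM, fragments per kilobase of gene scaled to the reads of the library. A member held 96 to 3543 reads in a GSH or WT library, with a median over members of 660. The spread between libraries of a group was small, with a median coefficient of variation over members of 4.52% in GSH, 4.79% in WT and 9.1% in Cas9. Epithelial markers summed to 2293 to 2414 FPKM in GSH and 2247 to 2328 FPKM in WT, so both groups expressed genes of epithelial cells. Of the 8 tested, 3 were higher and 3 lower in GSH (37.5% each), against 20.6% and 16.4% of all genes. Transcripts of secretory glands, which a mammary carcinoma line is not known for, summed to 15.8, 436.1 and 161.1 FPKM in GSH 1, 2 and 3 and to 1.69, 5.31 and 303.5 FPKM in WT 1, 2 and 3. GSH 2, GSH 3 and WT 3 therefore stood apart from the other 3 libraries in these genes, and the members' medians are also given within each of these sets. Erythroid markers summed to 19.9, 36.25 and 68.19 FPKM in GSH 1, 2 and 3 and to 10.74, 42.44 and 5.95 FPKM in WT 1, 2 and 3. Fibroblast and endothelial markers summed to 14.76, 29.52 and 14.43 FPKM in GSH and 3.63, 9.43 and 16.29 FPKM in WT. Neither list followed the split by gland transcripts, and their part in the members' values was not tested.

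Mitochondrial ribosomal protein genes were more often higher than lower in GSH cells relative to WT cells, by small amounts. Of the 77 genes, all of which passed the minimum mean of 1 FPKM, 23 rose, 2 fell and 52 did not pass the test (limma on log2(FPKM + 1), Benjamini-Hochberg adjusted p under 0.05). The 23 that rose were 29.9% of the members, against 20.6% of all 12283 genes tested. The 2 that fell were 2.6% of the members, against 16.4% of all genes. In either direction 32.5% of members were called, against 37.0% of all genes, so members were not called more often than other genes and differed from them in how the calls were divided between the directions. The members' log2 changes had a median of 0.10 and ran from -0.13 to 0.33, beside a median of 0.02 over all genes tested. The change was above 0 for 60 of 77 members, or 77.9%, against 54.1% of all genes.

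The 3 GSH libraries lay above the 3 WT libraries without overlap for 37 members, or 48.1%, against 29.0% of all genes. They lay below for 4 members, or 5.19%, against 23.5% of all genes. Set against the mean of WT, the members' median was 0.14 in GSH 1, 0.11 in GSH 2 and 0.07 in GSH 3, and -0.01 in WT 1, -0.04 in WT 2 and 0.04 in WT 3. Each GSH library was thus above each WT library in this median, with GSH 3 and WT 3 closest. Summed over the 77 members, FPKM was 1274.6, 1249.6 and 1210.9 in GSH and 1148.0, 1121.1 and 1199.6 in WT, or 1245.0 ± 32.1 in GSH and 1156.2 ± 39.9 in WT (SD, n = 3 each), a ratio of 1.08. The lowest GSH sum stood just above the highest WT sum.

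**Figure D1:**
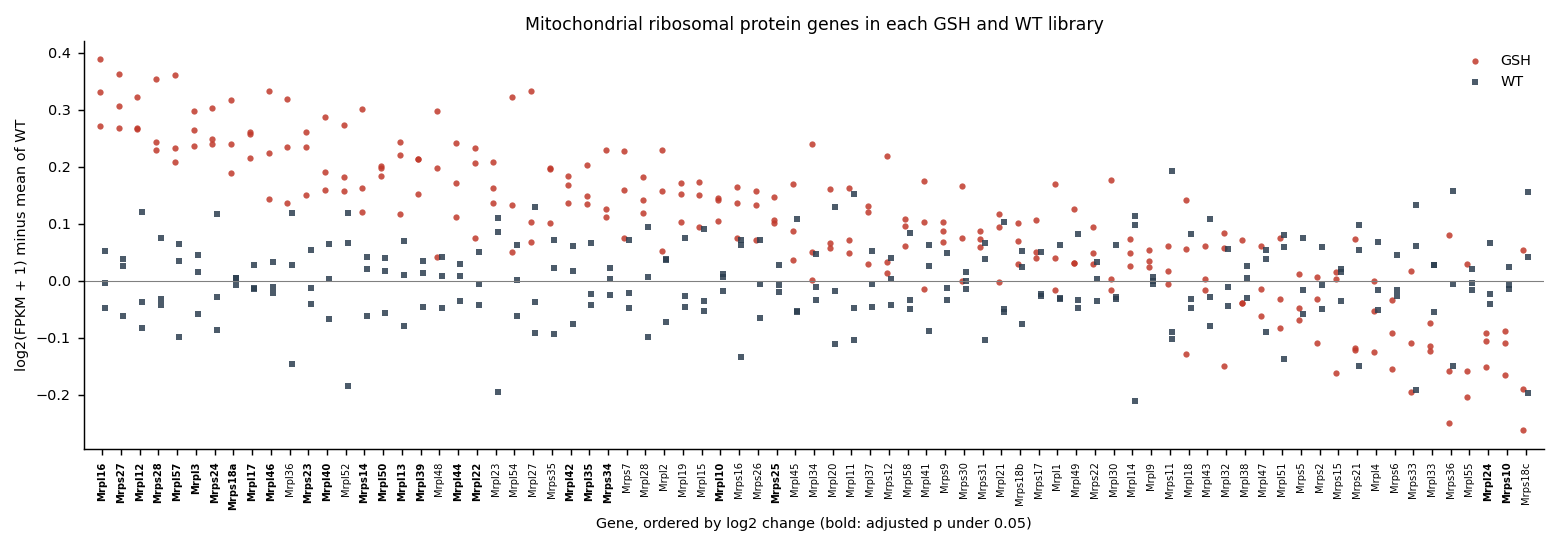
Each of the 77 genes in each library, as log2(FPKM + 1) minus the mean of the WT libraries (y axis), for GSH (circles) and WT (squares), ordered along the x axis by log2 change with called genes in bold. GSH points lie above WT points without overlap for 37 genes and below them for 4.

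The call depended on single libraries for part of the genes. Without WT 1, 14 members rose and 0 fell. Over all genes, 1663 of 12275 then rose and 1335 fell. With no filter on low values, 15 members rose and 0 fell. Of the 30803 genes then tested, 1697 rose and 1389 fell. In the main fit 2533 rose and 2014 fell of 12283, so calls became fewer over all genes as well. Within GSH 2, GSH 3 and WT 3, the median over all members was 0.04 and 49 of 77 changes were above 0. Within GSH 1, WT 1 and WT 2, the median was 0.17 and 69 of 77 were above 0. Each set leaves 1 library in a group and 1 residual degree of freedom, so calls within the sets are not given. Under all 15 alternatives fixed for GSH against WT, the rise was called for 12 genes: Mrpl3, Mrpl10, Mrpl12, Mrpl16, Mrpl17, Mrpl39, Mrpl50, Mrps18a, Mrps23, Mrps24, Mrps27 and Mrps28. The other 11 lost it under at least 1.

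Reads of the mitochondrial genome took 5.72 to 6.1% of each GSH library and 8.17 to 8.48% of each WT library, and FPKM is scaled to a total that holds them. With FPKM rescaled to the total without these genes, 16 members rose and 3 fell, and the members' median was 0.06. Over all genes, 1884 were then higher and 2521 lower (42.8% of calls higher), beside 2533 higher and 2014 lower (55.7%) as deposited, and the median over all genes was -0.01, beside 0.02 as deposited.

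The large subunit carries the peptidyl transferase centre, formed by its ribosomal RNA, and the exit tunnel of the new chain. Of its 50 protein genes tested, 16 rose, 1 fell and 33 did not pass, with a median log2 change of 0.13. Those that rose were 32.0%, against 20.6% of all genes, and the 1 that fell 2.0%, against 16.4%. Mrpl16, whose bacterial counterpart lies near the peptidyl transferase centre, had 10.4, 9.55 and 10.0 FPKM in GSH and 7.46, 8.07 and 7.72 FPKM in WT. Mrpl3, the counterpart of another protein near that centre, had 7.31, 7.11 and 6.96 FPKM in GSH and 5.83, 5.48 and 5.96 FPKM in WT. For both genes every GSH library was above every WT library. The log2 change was 0.33 (SE 0.04, adjusted p = 0.00332) for Mrpl16 and 0.27 (SE 0.04, adjusted p = 0.00433) for Mrpl3 in limma.

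Mrpl12, a stalk protein that in human cells also binds the mitochondrial RNA polymerase, was the member with the highest FPKM in GSH. It had 72.7, 69.9 and 69.9 FPKM in GSH and 56.5, 54.6 and 63.1 FPKM in WT, without overlap. Its log2 change was 0.29 (SE 0.06, limma adjusted p = 0.00953). Mrpl17, whose bacterial counterpart lies by the exit tunnel, had 5.57, 5.78 and 5.76 FPKM in GSH and 4.61, 4.77 and 4.60 FPKM in WT. Its libraries were tight within each group, and its log2 change was 0.24 (SE 0.03, limma adjusted p = 0.00364). The promoters of both genes held an NRF1 match, as shown above.

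The large subunit also holds many proteins without a bacterial counterpart. Among them Mrpl57 averaged 9.29 ± 0.594 FPKM in GSH and 7.56 ± 0.504 FPKM in WT, Mrpl46 averaged 8.08 ± 0.601 FPKM in GSH and 6.72 ± 0.156 FPKM in WT, and Mrpl40 averaged 11.5 ± 0.588 FPKM in GSH and 9.79 ± 0.492 FPKM in WT (SD, n = 3 each). These were log2 changes of 0.27, 0.23 and 0.21, and all 3 genes passed in limma and showed no overlap between the groups. Of the other members of the large subunit that rose, Mrpl50, Mrpl13, Mrpl39, Mrpl44, Mrpl22, Mrpl42, Mrpl35 and Mrpl10, the log2 changes were 0.13 to 0.19.

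Mrpl24, whose bacterial counterpart binds early in assembly and sits at the tunnel exit, was the large subunit gene that fell. It had 27.0, 27.2 and 26.1 FPKM in GSH and 28.6, 30.5 and 28.2 FPKM in WT, so the groups came close and did not overlap. The log2 change was -0.12 (SE 0.04, limma adjusted p = 0.0486). It was the call nearest the threshold on the inner side. Its adjusted p reached 0.142 over the alternatives, and the call was lost on leaving out any 1 of the 6 libraries.

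The small subunit holds the messenger RNA and the decoding centre, which is built on its ribosomal RNA. Of its 26 protein genes tested, 7 rose, 1 fell and 18 did not pass, with a median log2 change of 0.08. Those that rose were 26.9%, against 20.6% of all genes, and the 1 that fell 3.85%, against 16.4%. The difference between the subunits was not tested. Mrps27, a protein with pentatricopeptide repeats and no bacterial counterpart, had 9.74, 9.46 and 10.2 FPKM in GSH and 7.31, 7.91 and 7.84 FPKM in WT. Mrps28, the counterpart of bacterial protein bS1, had 17.7, 16.2 and 16.3 FPKM in GSH and 13.3, 13.2 and 14.4 FPKM in WT. Mrps24, the counterpart of a bacterial protein at the entry of the messenger RNA channel, had 38.0, 39.5 and 37.8 FPKM in GSH and 29.9, 31.2 and 34.6 FPKM in WT. The groups did not overlap for any of these 3 genes, and WT 3 was the highest WT library for Mrps28 and Mrps24. Their log2 changes were 0.31 (SE 0.04), 0.28 (SE 0.05) and 0.26 (SE 0.06), with limma adjusted p of 0.0034, 0.00721 and 0.0125.

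Mrps23, a small subunit protein found only in mitochondria, averaged 24.4 ± 1.0 FPKM in GSH and 20.9 ± 0.737 FPKM in WT (SD, n = 3 each). Its log2 change was 0.21 (limma adjusted p = 0.00922). Mrps14, Mrps34 and Mrps25 rose by 0.12 to 0.19 on the log2 scale. Mrps10, whose bacterial counterpart lies in the head of the small subunit, fell. It had 8.09, 7.95 and 7.61 FPKM in GSH and 8.61, 8.56 and 8.82 FPKM in WT, without overlap. The log2 change was -0.12 (SE 0.03, limma adjusted p = 0.0305), and over the alternatives the adjusted p ran from 0.0143 to 0.0919.

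**Figure D2:**
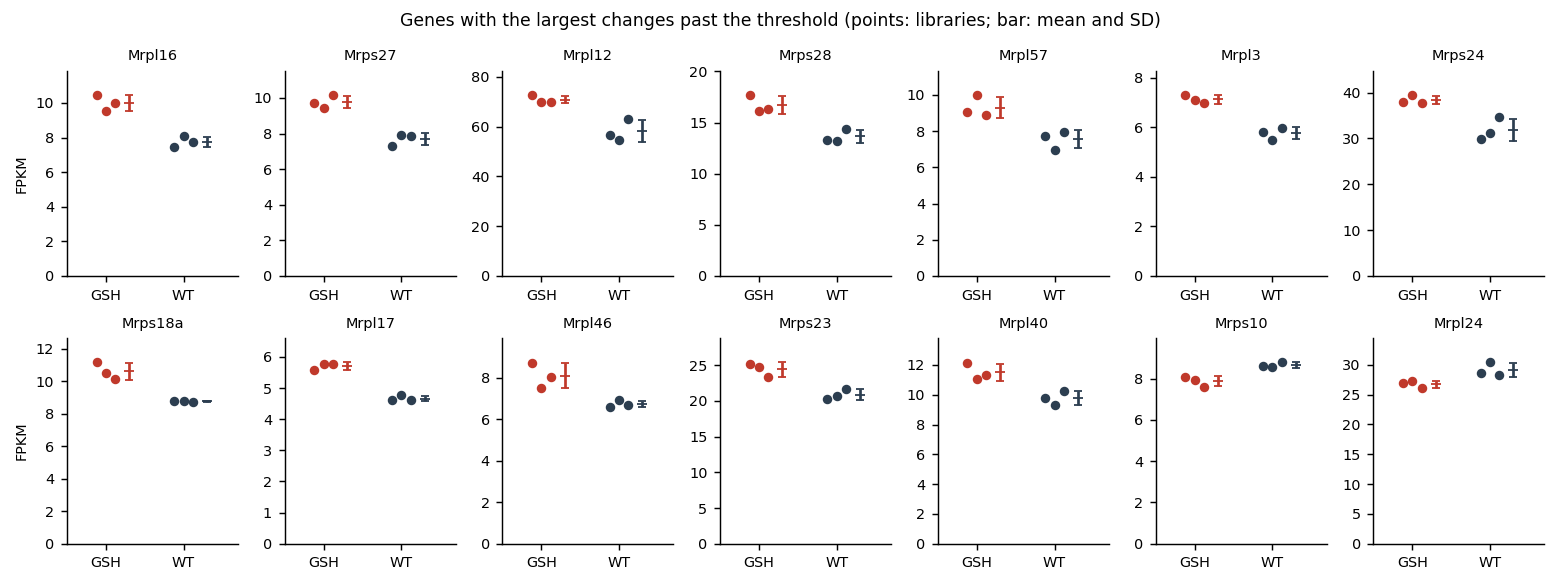
FPKM (y axis, from 0) in each GSH library (left in each panel) and each WT library (right) of the 12 genes with the largest increases past the threshold and of Mrps10 and Mrpl24, which fell; points are libraries and bars the mean and SD. The 3 GSH points lie above the 3 WT points in the first 12 panels and below them in the last pair.

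Grouped by origin, 11 of the 45 tested genes with a bacterial counterpart rose (24.4%) and 2 fell (4.44%). Their median log2 change was 0.09. Of the 31 tested genes without such a counterpart, 12 rose (38.7%) and 0 fell at the adjusted threshold, with a median of 0.12. Over all genes tested, 20.6% rose and 16.4% fell at that threshold. At an unadjusted p under 0.05 there were 15 of these 31 genes (48.4%) and 21 of the 45 (46.7%), against 47.9% of all genes. The difference between the origins was not tested.

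**Figure D3:**
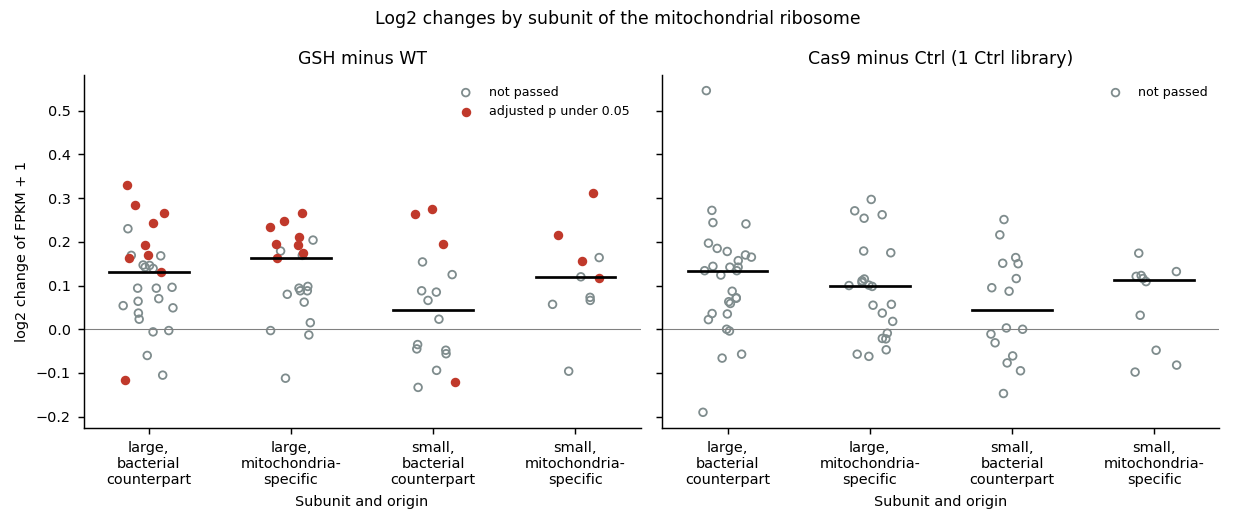
Log2 change of FPKM + 1 (y axis) of each gene by subunit and origin (x axis), for GSH minus WT (left) and Cas9 minus Ctrl (right, 1 Ctrl library); filled points passed an adjusted p of 0.05 and lines are medians. Filled points lie mostly above 0 for GSH minus WT, and no point is filled for Cas9 minus Ctrl.

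Mrps18 exists as 3 paralogs in mammals. Mrps18a, a protein of the large subunit, had 11.2, 10.5 and 10.1 FPKM in GSH and 8.80, 8.80 and 8.72 FPKM in WT, with every GSH library above every WT library. It rose by a log2 change of 0.25 (SE 0.04, limma adjusted p = 0.00506). Mrps18b averaged 17.7 ± 0.46 FPKM in GSH and 16.9 ± 0.824 FPKM in WT, and Mrps18c averaged 5.29 ± 0.743 FPKM in GSH and 5.90 ± 0.84 FPKM in WT (SD, n = 3 each). Their log2 changes of 0.07 and -0.13 did not pass and the groups overlapped. Mrps18c rested on 96 to 199 reads a library, the lowest depth among the members.

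Other members with a known role of their own did not pass the test. They were Mrpl58, a hydrolase that releases peptides from stalled ribosomes (log2 change 0.09), Mrps12, a protein of the decoding centre (0.09), and Mrps30 (0.08). Mrps36 averaged 11.8 ± 1.54 FPKM in GSH and 12.8 ± 1.47 FPKM in WT (SD, n = 3 each), a log2 change of -0.11 that also did not pass. Mrps7 (0.15, limma adjusted p = 0.0519) and Mrpl19 (0.14, adjusted p = 0.0524) lay just outside the threshold, and Mrps25 (0.12, adjusted p = 0.0391) just inside.

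The kit in the labels does not mark strand, and reads of a gene and of one that overlaps it cannot be told apart. In GENCODE M21, 32 members shared exon sequence with another gene, 27 of them with a gene on the opposite strand. Among the 23 that rose this held for 10, among them Mrpl12 (Gm16755), Mrpl3 (Gm38077 and Gm47106), Mrps27 (6430562O15Rik) and Mrps24 (Urgcp, same strand). Mrpl24 overlaps Rrnad1. Mrpl46 and Mrps11 share exon sequence with each other on opposite strands. Mrpl46 rose, whereas Mrps11 had 8.70, 8.99 and 8.55 FPKM in GSH and 7.93, 8.01 and 9.96 FPKM in WT, and overlapped between the groups. Its log2 change of 0.02 did not pass.

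Genes that work with the mitochondrial ribosome did not share one direction. Of the 5 tested mitoribosomal proteins under other symbols, 0 rose and 1 fell at the adjusted threshold, with a median log2 change of -0.02. Ptcd3 fell, to 14.3, 13.7 and 14.2 FPKM in GSH against 15.1, 15.2 and 15.5 FPKM in WT. Dap3, a GTP-binding protein of the small subunit, averaged 11.7 ± 0.515 FPKM in GSH and 11.9 ± 0.287 FPKM in WT (SD, n = 3 each) and did not pass.

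Of 26 tested factors that assemble the ribosome, 1 rose, 5 fell and 20 did not pass, with a median log2 change of -0.04. Those that fell were 19.2%, near the 16.4% of all genes, and those that rose 3.85%, against 20.6% of all genes. Mettl17, a methyltransferase-like protein that binds the small subunit during assembly, fell to 7.92, 7.97 and 8.12 FPKM in GSH, against 10.5, 10.5 and 10.8 FPKM in WT. Its log2 change was -0.36 (SE 0.03, limma adjusted p = 0.00161). Ngrn and Ndufab1 fell as well, by 0.29 and 0.21 on the log2 scale, and Noa1, a GTPase, rose by 0.13. Without WT 1, 0 assembly factors rose and 3 fell, and with FPKM rescaled without mitochondrial genes 0 rose and 6 fell.

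Of 15 tested translation factors, 4 rose, 4 fell and 7 did not pass, with a median of 0.05. Each direction held 26.7% of the list, against 20.6% of all genes higher and 16.4% lower. The elongation factor Tufm averaged 62.7 ± 1.75 FPKM in GSH and 56.0 ± 1.24 FPKM in WT, while Guf1, a GTPase related to bacterial LepA, averaged 4.96 ± 0.0447 FPKM in GSH and 6.03 ± 0.203 FPKM in WT (SD, n = 3 each). Their log2 changes were 0.16 and -0.24, and Mss51 fell by 0.44. Of 20 aminoacyl-tRNA synthetases of mitochondria, 0 rose and 4 fell at the adjusted threshold (Hars2, Tars2, Yars2 and Cars2, by 0.11 to 0.19), with a median of -0.03. Those 4 of 20 were a share near the 16.4% of all genes, and 0 of 20 rose, against 20.6% of all genes.

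Genes that keep and transcribe the mitochondrial genome gave 2 higher and 2 lower of 18 tested, with a median log2 change of -0.06. Each direction held 11.1% of the list, against 20.6% of all genes higher and 16.4% lower. Hsd17b10, a subunit of mitochondrial RNase P, rose by 0.29, and Polg2, a subunit of the mitochondrial DNA polymerase, fell by 0.27. Pnpt1, a ribonuclease, fell by 0.19. Among 11 regulators of mitochondrial biogenesis, Nrf1, the factor whose motif is printed above, averaged 5.29 ± 0.171 FPKM in GSH and 4.66 ± 0.138 FPKM in WT (SD, n = 3 each) and rose by 0.15. Sp1 rose by 0.17, Perm1 fell by 0.24 and the other 8 did not pass. The 2 that rose were 18.2% of these regulators, against 20.6% of all genes, and the 1 that fell 9.09%, against 16.4%.

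Transcripts of the mitochondrial genome were mostly lower. Of its 13 messenger RNAs, 0 rose and 9 fell at the adjusted threshold, with a median log2 change of -0.46. The 9 were 69.2% of them, against 16.4% of all genes. mt-Rnr1, the ribosomal RNA of the small subunit, stood at 429.2, 387.0 and 373.4 FPKM in GSH, against 651.9, 582.8 and 620.4 FPKM in WT, a log2 change of -0.64 (limma adjusted p = 0.00195). mt-Rnr2, the ribosomal RNA of the large subunit, stood at 657.6, 536.6 and 583.6 FPKM in GSH and 748.1, 624.6 and 667.7 FPKM in WT, which overlapped and did not pass (adjusted p = 0.137). Whether the changes in these RNAs and those in the protein genes are related was not tested.

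Genes of protein import and quality control in mitochondria gave 7 higher and 0 lower of 19 tested at the adjusted threshold, with a median of 0.11, and the 7 were 36.8% of the list, against 20.6% of all genes. The chaperone Hspa9 rose to 87.9, 87.1 and 87.8 FPKM in GSH, against 70.6, 72.3 and 73.6 FPKM in WT, a log2 change of 0.28 (SE 0.03, limma adjusted p = 0.00178). Phb rose by 0.27 and the import receptor Tomm70a by 0.20. Without WT 1, 4 of these genes were called higher and 0 lower, and with FPKM rescaled without mitochondrial genes 4 higher and 1 lower. Proliferation markers moved in the same comparison, with 13 higher and 3 lower of 17 and a median of 0.20. The 13 were 76.5% of that list, against 20.6% of all genes, and the 3 were 17.6%, against 16.4%. The part of these markers in the members' changes was not tested.

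**Figure D4:**
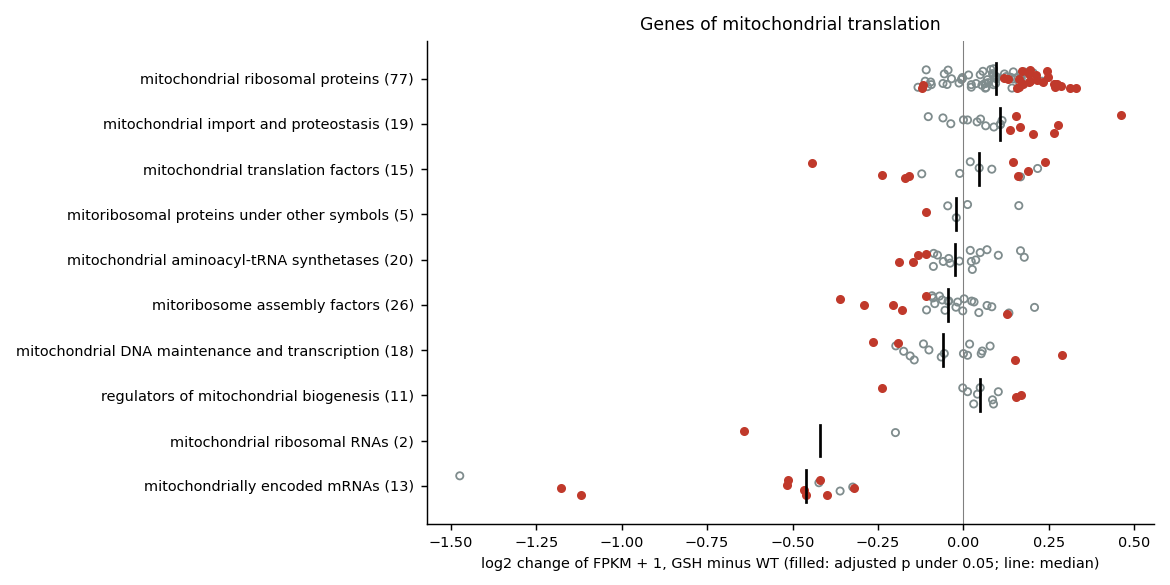
Log2 change of FPKM + 1, GSH minus WT (x axis), of each tested gene in the mitochondrial lists (y axis, number tested in brackets); filled points passed an adjusted p of 0.05 and short lines are medians. The ribosomal protein genes sit mostly right of 0 with a median of 0.10, and the messenger RNAs of the mitochondrial genome left of 0 with a median of -0.46.

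Across members, levels in WT spanned 1.09 FPKM for Mrpl48 to 60.6 FPKM for Mrps21, with a median of 10.6 FPKM beside 7.12 FPKM over all genes tested. The 5 highest in WT were Mrps21 (60.6 ± 5.5 FPKM), Mrpl12 (58.1 ± 4.43), Mrpl2 (46.9 ± 2.09), Mrpl38 (36.1 ± 0.733) and Mrpl28 (35.1 ± 2.4; SD, n = 3 each). Mrps21 and Mrpl12 differed by less than either SD, and Mrpl38 and Mrpl28 by less than the SD of Mrpl28. In GSH, Mrpl12 at 70.8 ± 1.58 FPKM stood above Mrps21 at 58.2 ± 4.68 FPKM. The 5 lowest in WT were Mrpl48, Mrps35 (2.47 ± 0.203 FPKM), Mrpl23 (3.4 ± 0.498), Mrpl32 (3.76 ± 0.169) and Mrps30 (3.88 ± 0.0515). Mrpl23, Mrpl32 and Mrps30 each differed from the next by less than the larger of the SDs.

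These levels depended on the gene length behind the FPKM. In the GSH and WT table the values divided by the merged length of all annotated exons, which was 607 to 8631 bases for members with a median of 2533, whereas the principal transcripts were 418 to 7300 bases with a median of 1316. Across the 77 members, Spearman's rho of WT FPKM with the merged length was -0.64, a description over genes that share the same libraries. Per kilobase of principal transcript, Mrpl33 came first at 123.4, although it ranked 52 by FPKM at 8.05, because its merged length of 7326 bases was 15.3 times that of its principal transcript of 478 bases. Mrpl42, Mrps21 and Mrpl13 followed at 104.8, 91.7 and 80.2. Changes between GSH and WT within a gene do not depend on this length except through the pseudocount.

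**Figure D5:**
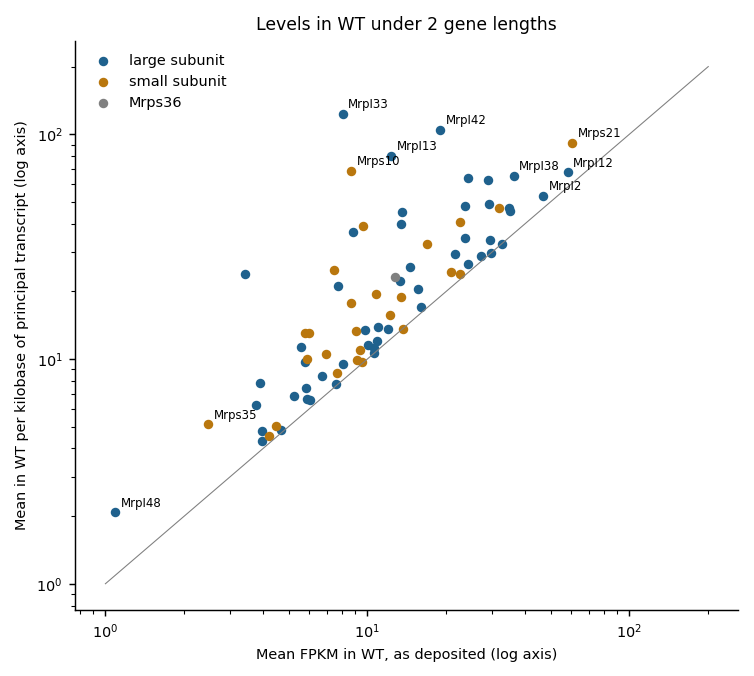
Mean WT level of each gene as deposited, in FPKM (x axis, log scale), against the same level per kilobase of the principal transcript (y axis, log scale), coloured by subunit; the line marks equal values. Mrpl33, Mrpl42, Mrpl13 and Mrps10 lie far above the line, and Mrps21 and Mrpl12 are high on both axes.

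In Cas9 cells relative to Ctrl 3, no member passed the test. Of 78 genes tested, 0 were called in either direction, as were 0 of all 11407 genes (0.0%), by limma with Benjamini-Hochberg adjustment. At an unadjusted p under 0.05 there were 210 genes (1.84%) and 1 member. The fit had 2 residual degrees of freedom, all from the spread between Cas9 libraries, and Ctrl 3 was assumed to vary as they did. The median standard error of a member's log2 change was 0.16, against 0.05 for GSH and WT.

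The members' log2 changes had a median of 0.10 and ran from -0.19 to 0.55, beside a median of -0.01 over all genes. The change was above 0 for 58 members, or 74.4%, against 47.2% of all genes. The 3 Cas9 libraries were all above Ctrl 3 for 27 members, or 34.6%, against 20.1% of all genes. They were all below it for 4 members, or 5.13%, against 22.5% of all genes. The median difference from Ctrl 3 was 0.09 in Cas9 1, 0.00 in Cas9 2 and 0.17 in Cas9 3, so the Cas9 libraries differed among themselves by as much as the median itself. Without Cas9 3 the median was 0.05. Summed FPKM was 2243.7, 2095.4 and 2383.5 in Cas9 and 2084.4 in Ctrl 3. The FPKM of all genes also summed lowest in Ctrl 3. As a share of that sum, members took 0.521%, 0.497% and 0.537% in Cas9 and 0.509% in Ctrl 3. By this share Ctrl 3 lay within the range of the Cas9 libraries.

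Mrpl33, a small protein of the large subunit, was the member under the unadjusted threshold. It had 55.5, 57.4 and 71.6 FPKM in Cas9 and 41.5 FPKM in Ctrl 3. The log2 change was 0.55 (SE 0.19, limma unadjusted p = 0.0384, adjusted p = 1.0). In GSH the same gene had 7.30, 7.59 and 7.36 FPKM, and in WT 8.22, 7.71 and 8.23 FPKM, a log2 change of -0.11 that did not pass (limma adjusted p = 0.0628). Different gene lengths lie behind the FPKM of Cas9 and Ctrl and that of GSH and WT, so the levels of Mrpl33 cannot be compared between them. Mrpl47 had the largest negative change in Cas9, at 14.1 ± 0.862 FPKM (SD, n = 3) against 16.2 FPKM in Ctrl 3.

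Genes that rose most in GSH stood as follows in Cas9. Mrpl12 had 100.7, 85.8 and 112.7 FPKM in Cas9 and 83.7 FPKM in Ctrl 3. Mrpl16 had 14.2, 16.6 and 19.5 FPKM in Cas9 and 16.2 FPKM in Ctrl 3. Mrps27 had 12.2, 10.5 and 11.4 FPKM in Cas9 and 12.1 FPKM in Ctrl 3, so Mrpl12 lay above Ctrl 3 in all Cas9 libraries and the other pair straddled it. The 2 tables were scaled separately, and the difference between their changes was not tested.

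Highest in Cas9 were Mrpl52 (144.0 ± 2.75 FPKM), Mrpl13 (114.7 ± 10.7), Mrpl12 (99.7 ± 13.5), Mrps21 (89.9 ± 8.87) and Mrpl54 (78.5 ± 0.534), and their order in Ctrl 3 was Mrpl52 (134.2 FPKM), Mrpl13 (104.2), Mrps21 (93.6), Mrpl12 (83.7) and Mrpl54 (69.3). Mrpl12 and Mrps21 differed by less than the SD of Mrpl12 in Cas9. The lowest were Mrps25 (3.86 ± 0.879 FPKM), Mrpl48 (4.15 ± 0.438), Mrpl1 (4.17 ± 0.45), Mrpl4 (4.70 ± 0.603) and Mrpl19 (4.71 ± 0.562; SD, n = 3 each), and no neighbours in that order differed by more than the larger of their SDs. Mrpl4 ranked 74 here and 16 in WT. The length behind its FPKM was 2617 bases in WT, and the smallest that gave whole reads in Cas9 and Ctrl was 8356 bases. These ranks are therefore not a comparison of expression. The median over members was 23.3 FPKM in Cas9 and 21.1 FPKM in Ctrl 3. Across the 77 genes in both tables, Spearman's rho between the Cas9 and WT means was 0.46, and 0.53 with WT per kilobase of principal transcript, with different gene lengths behind the 2 tables.

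Mrpl53 had 28.7, 27.0 and 32.2 FPKM in Cas9 and 30.6 FPKM in Ctrl 3, which straddled. The Cas9 and Ctrl libraries also held transcripts of other cell types. Leukocyte markers summed to 837.7, 833.5 and 1086 FPKM in Cas9 and 792.0 FPKM in Ctrl 3 over 23 listed genes, of which 17 passed the minimum, and to 22.96 to 28.01 FPKM in GSH and WT libraries over 22 genes, of which 3 passed. S100a8 and S100a9, calcium-binding proteins abundant in neutrophils, made up 215.2, 165.8 and 663.3 FPKM of the sums in Cas9 and 126.9 FPKM in Ctrl 3. The other 21 genes summed to 622.6, 667.7 and 422.7 FPKM in Cas9 and 665.0 FPKM in Ctrl 3, and the median log2 change of the list was -0.09. That median hides changes in both directions. T-cell and NK-cell genes had log2 changes of 0.91 (Cd3g), 0.88 (Cd3e), 0.82 (Cd8a), 1.11 (Nkg7) and 0.85 (Gzmb). Macrophage and monocyte genes had -0.66 (Csf1r), -0.60 (Fcgr1), -0.55 (Adgre1), -0.16 (Cd68) and 0.055 (Cd14). Fibroblast and endothelial markers summed to 606.3, 1636 and 546.5 FPKM in Cas9 and 1097 FPKM in Ctrl 3, and epithelial markers to 1862, 2357 and 2626 FPKM in Cas9 and 2289 FPKM in Ctrl 3. No marker was at 0 in all 4 libraries in these lists. In such mixed samples fewer cells of a type and less RNA per cell cannot be told apart, and their part in the members' values was not tested.

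Promoter windows of 300 bases, from 250 before to 50 after the start, were found for 69 members (75 windows); 9 members had none. The NRF1 motif was in 13 windows, or 17.3%, against 10.5% of 10820 windows of expressed genes and 4.6% of all 32851 windows. The ETS motif CCGGAAG was in 26, or 34.7%, against 18.7% of expressed and 8.86% of all windows. The YY1 motif AANATGGCG was in 11, or 14.7%, against 5.43% of expressed and 2.38% of all windows. Of its 11 matches, 9 ended at or after the start, wherever they began. Both strands were searched, and overlaps between motifs were not removed.

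The shares of other promoter motifs are given with no test, as are those above. GGGCGG, bound by Sp factors, was in 52.0% of member windows, against 64.5% of expressed and 35.7% of all windows. The E-box CACGTG was in 9.33%, against 10.2% and 7.15%. TATAAA was in 6.67%, against 6.77% and 13.6%, and CCAAT in 40.0%, against 37.8% and 37.4%. The median GC content was 58.7% in member windows, 61.3% in those of expressed genes and 52.7% in all.

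The motifs were found both in genes that rose in GSH and in those that did not. Of the 20 genes that rose and had a window, 5 held the NRF1 motif, 7 the ETS motif and 5 the YY1 motif. Of the 48 other tested members with a window, 8 held the NRF1 motif, 18 the ETS motif and 6 the YY1 motif. The ETS match of Mrps18a lies close to the start in the sequence printed above, as does that of Mrpl3, and the NRF1 match of Mrpl12 lies farther upstream. A match describes the letters and does not show binding.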

How the data were processed

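No unit is given in the sources used here. The authors' deposited values were read as FPKM on the strength of the values. Per the submitters' processing notes, the tools were HTSeq (0.6.0), HISAT2 (2) and Bowtie2 (2.2.3), with mm8 as the build, and no role is given for any. Each deposited FPKM of the GSH and WT table was a whole number of reads divided by the GENCODE M21 merged exon length and 1 library total, for 98.5% of 30190 genes with a symbol (within 0.05 read). In the Cas9 and Ctrl table a whole gene length gave whole reads for 99.4% of 17018 genes (within 0.03 read), so member reads there are lower limits. The annotation M21 is later than mm8, and the coordinates printed are those of RefSeq. Tables were scaled separately and were tested separately.

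Tests used limma 3.58.1 (lmFit, eBayes with trend, R 4.3.3) on log2(FPKM + 1), two-sided, group only, on all genes averaging at least 1 FPKM. A fold change on this scale understates the change of low genes. Since the files held no counts, a count model was not the main test. Nothing in the labels ties the replicates to separate cultures, and p-values then cover only the spread among these libraries, which may be technical. Fits were also run on simulated data, with the same spread set for every gene in both comparisons. The members' spread among Cas9 libraries was larger than in GSH or WT, so that run does not check the fit of Cas9 against Ctrl. Alternatives were a pseudocount of 0.1, no filter, a minimum of 5 FPKM, relative log expression scaling, rescaling without mitochondrial genes, no trend, limma-voom on recovered reads, the replicate block, a term for the libraries with gland transcripts, and leaving out each library.

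Members, gene lists, motifs and named genes were chosen with earlier results of these data known. Named were the 12 largest changes past the threshold in each direction, the 5 highest and lowest levels, genes missing from a table or called against the majority, paralogs and genes of known role, 2 on each side of the threshold, and 3 genes per related list with calls; Dap3, Cars2, Noa1, Mrpl47, Mrps11 and Mrpl33 were added after their values were seen. Promoter sequences are from RefSeq (GRCm38.p6). 4 pseudogenes with matching symbols were left out.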

Additional observations from a re-analysis of the deposited data

How the results depend on the processing

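For GSH against WT, where 23 members were higher and 2 lower, the count of higher members was 15 with no filter and 14 to 25 leaving out 1 library at a time, and 16 to 32 under the other fixed alternatives that used all libraries. The highest of these came from limma-voom on recovered reads, which called 32 members higher and 3 lower, and 2889 genes higher and 2187 lower of 11934. Over all genes, 1697 were higher with no filter and 1663 to 2089 leaving out 1 library at a time, beside 2533 in the main fit. The 2 lower members became 0 with no filter, 1 without the trend, 0 to 1 leaving out 1 library, 0 with a term for the libraries with gland transcripts, and 3 with relative log expression scaling or without mitochondrial genes. The lower gene was not always Mrps10 or Mrpl24: it was Mrpl55 without GSH 2 and Mrpl33 without WT 2, and Mrpl33 was the gene added where there were 3. The members' median log2 change of 0.096 was 0.06 with FPKM rescaled without mitochondrial genes and 0.079 to 0.136 leaving out 1 library. The splits chosen after seeing the data, within GSH 2, GSH 3 and WT 3 and within GSH 1, WT 1 and WT 2, gave medians of 0.04 and 0.167. Each has 1 residual degree of freedom. The cause of these moves was not tested.

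With the replicate block, 18 members were higher and 1 lower. The replicate numbers were not shown to pair the samples: deviations of same-numbered GSH and WT libraries correlated at 0.479, -0.107 and 0.209, and GSH 2 correlated best with WT 3. No paired analysis was possible for Cas9 against Ctrl because the groups share only number 3. For that comparison 0 members were called under every alternative run, and rescaling without mitochondrial genes was not run, since its table lists none of them. The summed FPKM of members in GSH over WT was 1.049 to 1.097 under all alternatives. Over the named genes and these settings for GSH against WT, a call was lost 180 times and gained 26 times, and 1130 values stayed on their side of the threshold with 0 reversed. Those tallies include the splits chosen after seeing the data. With 1 library in a group, the splits could hardly call any gene, so losses there say nothing about how stable a call was. Depth was lowest for Mrps18c, at 96 to 199 reads in a GSH or WT library.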
